A study of Mus musculus with 6 samples.

Results

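The hypoxia response and glycolysis genes are 35 genes chosen by symbol from textbook knowledge of the pathway, out of 18193 genes that had a probe set of their own on the array. The choice was made with earlier results of these data known. They fall into 7 genes for the hypoxia-inducible factor (HIF) subunits and oxygen sensing, 14 glycolytic enzymes, 5 genes for sugar and lactate carriers and flux control, and 9 other HIF targets. All probe sets annotated to these symbols were read. A probe set of their own was found for 31 of the 35 genes, 72 probe sets in all, and 66 of these, with at least 1 for each of the 31 genes, passed the filter on low signal. Eno1 and Gpi1 had no probe set named for them in the annotation table used here. The 3 probe sets for Bnip3l were also annotated to its pseudogene, and the 3 regular probe sets for Gapdh were shared with pseudogenes, so neither gene was tested; the 3 array control probe sets for Gapdh are described below as values.

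The study measured total RNA of immortalized mouse embryonic fibroblasts (connective tissue cells grown in culture) on 6 Affymetrix arrays, to find genes regulated by the histone acetyltransferases PCAF and GCN5, which overlap in function. All 6 samples were PCAF-/-, so no sample had a normal PCAF gene. The control group was PCAF-/-;GCN5+/- (3 arrays) and the other group PCAF-/-;GCN5-/- (3 arrays); the design text describes retroviral delivery of Cre recombinase or of the vector alone, but it writes GCN5+/- for both infections and the array labels name no virus, so the groups are called by genotype here. Each group held 2 duplicate RNAs of cell line A, called A1 and A2, and 1 RNA of the independently immortalized cell line B. Only 2 lines therefore stand behind any difference, and the p-values measure in part the spread between duplicate RNAs, which may be technical. Cells were grown in serum and went through repeated puromycin selection, with no further treatment; the labels give no oxygen level, and no sample is labelled hypoxic.

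HIF is a transcription factor made of an oxygen-controlled alpha subunit, HIF-1 alpha (Hif1a) or HIF-2 alpha (Epas1), and a stable partner, Arnt. In the presence of oxygen, prolyl hydroxylases of the Egln family mark the alpha subunit for destruction by the Vhl ubiquitin ligase, so HIF is controlled mostly at the level of protein. When oxygen falls, HIF binds the core letters ACGTG or GCGTG near its target genes and raises glucose carriers, glycolytic enzymes and genes for vessel growth, matrix synthesis and removal of mitochondria. Many of the glycolytic genes also answer to growth signals and to Myc.

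Promoter windows are shown for the 3 genes that rose with the smallest p-values and for the single gene that fell, because all are classical HIF targets and they moved in opposite directions. Each window runs from 250 bases before to 50 bases after the transcript start, 300 bases in all, taken from the RefSeq annotation of GRCm38.p6 and printed 5′ to 3′ on the strand of the gene. Capitals mark every ACGTG or GCGTG on either strand, so CACGT and CACGC in the printed strand are matches of the other strand. The windows were Pdk1 at chr2:71872974-71873273 (plus strand, the upstream of its 2 annotated windows), Bnip3 at chr7:138909457-138909756 (minus strand), Pgk1 at chrX:106186850-106187149 (plus strand) and Adm at chr7:110627407-110627706 (plus strand).
Pdk1: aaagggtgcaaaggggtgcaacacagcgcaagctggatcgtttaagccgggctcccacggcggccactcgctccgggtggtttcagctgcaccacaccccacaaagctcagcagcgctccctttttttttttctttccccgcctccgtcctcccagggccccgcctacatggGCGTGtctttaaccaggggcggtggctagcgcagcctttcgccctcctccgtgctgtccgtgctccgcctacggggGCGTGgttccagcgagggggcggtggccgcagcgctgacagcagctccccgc
Bnip3: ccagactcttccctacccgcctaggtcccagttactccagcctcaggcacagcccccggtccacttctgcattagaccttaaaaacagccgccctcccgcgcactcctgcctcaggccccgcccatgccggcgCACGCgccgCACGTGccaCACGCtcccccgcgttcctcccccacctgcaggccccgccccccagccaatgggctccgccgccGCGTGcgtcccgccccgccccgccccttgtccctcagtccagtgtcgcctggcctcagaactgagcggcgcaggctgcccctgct
Pgk1: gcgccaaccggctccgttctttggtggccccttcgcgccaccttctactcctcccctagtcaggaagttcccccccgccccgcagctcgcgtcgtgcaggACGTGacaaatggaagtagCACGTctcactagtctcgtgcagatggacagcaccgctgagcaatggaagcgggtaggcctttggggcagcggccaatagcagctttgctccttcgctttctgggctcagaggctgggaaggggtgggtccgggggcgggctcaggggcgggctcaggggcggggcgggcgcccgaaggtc
Adm: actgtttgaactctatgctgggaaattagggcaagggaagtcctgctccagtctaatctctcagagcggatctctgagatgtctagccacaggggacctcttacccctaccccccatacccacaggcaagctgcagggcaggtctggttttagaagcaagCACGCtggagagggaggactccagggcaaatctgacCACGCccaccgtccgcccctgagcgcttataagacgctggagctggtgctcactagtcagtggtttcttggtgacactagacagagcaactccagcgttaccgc
The Pdk1 window held 2 matches, which began 78 and 2 bases before the start, and the second Pdk1 window held none. Bnip3 had 5 matches, of which an ACGTG on each strand shared the palindrome CACGTG, a motif that other factors such as Myc also bind. The Pgk1 matches began 150 and 131 bases before the start, and the Adm matches 90 and 54 bases before it. Of all 32851 promoter windows in the table, 43.8% held at least 1 match, as did a window of 46.7% of all genes in it. Windows were found for 31 of the 35 genes. Epas1, Slc2a3, Bnip3l and Ndrg1 had none. A match was present for 9 of 9 genes that rose, for the 1 gene that fell and for 16 of 18 measured genes that were not called. A match is a description of these windows and does not show binding.

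In GCN5-/- arrays 9 of the 31 measured genes rose and 1, Adm, fell. The genes that rose were 5 glycolytic enzymes (Hk2, Pfkl, Pgk1, Pgam1 and Pkm), the glucose carrier Slc2a1, the pyruvate dehydrogenase kinase Pdk1, and the HIF targets Bnip3 and Ankrd37. Changes were small, from 1.15-fold for Pkm to 1.55-fold for Pdk1 among the genes that rose. Over all 12626 genes tested, with 1 probe set each, 5.09% rose and 4.77% fell at the same threshold (limma, Benjamini-Hochberg adjusted p under 0.05), against 29% and 3.23% of the 31 genes here. The median log2 change of the 31 was 0.21, beside 0.01 over all genes tested. As the list was chosen with earlier results of these data known, these shares and medians describe it and do not test it. Over all probe sets 4.2% rose and 4.31% fell; of the 66 tested for these genes 16 rose and 2 fell. Fitted changes were positive for all 16 measured enzymes, carriers and flux genes and for 3 of the 8 other HIF targets.

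**Figure D1:**
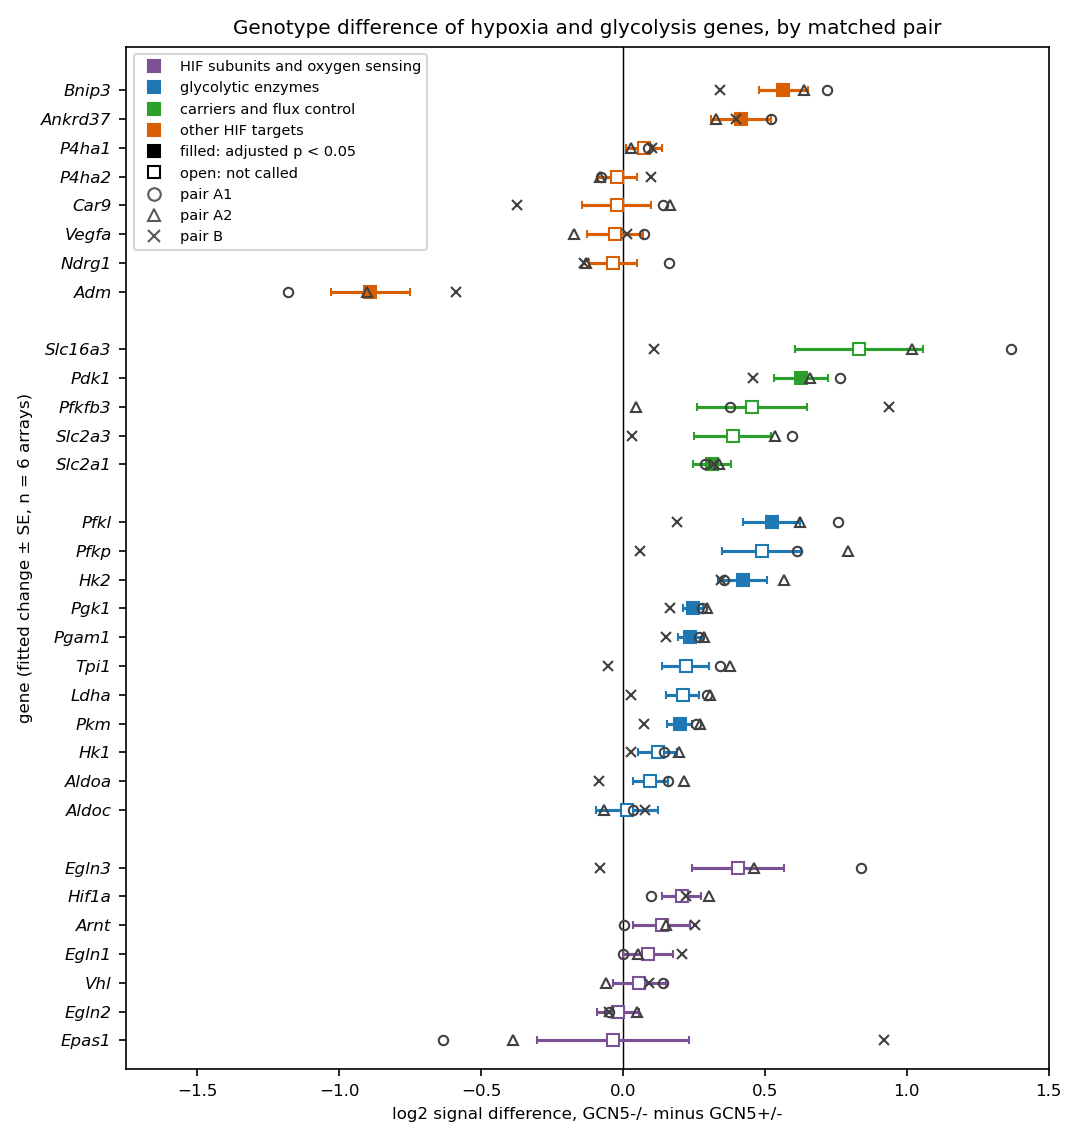
The plot gives the log2 signal difference, GCN5-/- minus GCN5+/-, on the horizontal axis for the 31 genes, with the fitted change ± SE as a square (filled where called) and the differences of pairs A1, A2 and B as a circle, a triangle and a cross. All 16 squares of the enzymes and of the carriers and flux control lie above 0, Adm lies at -0.89, and for most enzymes the cross of pair B lies left of the line A symbols.

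Of the HIF subunits and oxygen sensors, 0 of 7 were called by limma (2, Hif1a and Egln3, at an unadjusted p under 0.05), and their median log2 change was 0.09. Hif1a had log2 signals of 12.78, 12.82 and 12.93 in GCN5+/- A1, A2 and line B, and of 12.88, 13.13 and 13.15 in the matching GCN5-/- arrays. Its change was 0.21 ± 0.07 (SE; limma adjusted p = 0.106), positive in each pair, with overlapping groups. The other 3 Hif1a probe sets gave 0.06 to 0.40 and were not called either.

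Epas1 moved in opposite directions in the lines. Its signal was 8.92 and 9.09 in line A and 8.32 in line B of the GCN5+/- group, and 8.29 and 8.71 in line A and 9.24 in line B of the GCN5-/- group. The GCN5-/- arrays were thus the lower ones in line A and the higher one in line B, with a fitted change of -0.03 ± 0.27 (limma adjusted p = 0.958). The line difference in the genotype effect, B minus A, was 1.43 ± 0.29 and was not past the threshold (limma adjusted p = 0.198); it was 1.64 with an adjusted p of 0.0448 without GCN5-/- A2. A second, dimmer Epas1 probe set had the same signs with differences of -0.06, -0.09 and 0.07. Arnt, the shared partner of both alpha subunits, had a change of 0.14 ± 0.10 (limma adjusted p = 0.476).

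The prolyl hydroxylases are themselves partly HIF targets, Egln3 the most strongly. Egln3 had signals of 7.81, 7.92 and 9.28 in GCN5+/- A1, A2 and line B, and of 8.65, 8.38 and 9.20 in GCN5-/- arrays. Line B was above line A in both groups. The change was 0.41 ± 0.16 over the 6 arrays (limma adjusted p = 0.169) and 0.65 ± 0.14 within line A (limma adjusted p = 0.0330). A second Egln3 probe set had a change of 0.21 ± 0.17 over the 6 arrays (limma adjusted p = 0.526). Within line A its change was 0.50 ± 0.13 and was not called (limma adjusted p = 0.0598), and its pair B differed by -0.37. Egln1 had a change of 0.09 ± 0.09, Egln2 of -0.02 ± 0.07 and Vhl of 0.06 ± 0.09, none of them called.

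Glucose entry was represented by a pair of carriers. Slc2a1 (GLUT1, the main glucose carrier of fibroblasts) had signals of 11.36, 11.39 and 11.31 in GCN5+/- A1, A2 and line B, and of 11.65, 11.73 and 11.64 in GCN5-/- arrays. The groups did not overlap, and the pairs differed by 0.29, 0.34 and 0.32, for a fitted change of 0.32 ± 0.07 (limma adjusted p = 0.0281). All 3 Slc2a1 probe sets rose, the others by 0.34 each. Slc2a3 (GLUT3, a carrier of high affinity) differed by 0.60 and 0.53 in line A and by 0.03 in line B, with a fitted change of 0.39 ± 0.14 below the threshold (limma adjusted p = 0.123).

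Of the 11 glycolytic enzymes measured, 5 rose, 0 fell and 6 were not called, and every fitted change was positive, with a median of 0.22. Hexokinase 2, the inducible enzyme that traps glucose in the cell, had signals of 10.69, 10.68 and 10.53 in GCN5+/- A1, A2 and line B, and of 11.04, 11.25 and 10.88 in GCN5-/- arrays. The groups did not overlap, and Hk2 rose by 0.42 ± 0.09 (limma adjusted p = 0.0251). Hexokinase 1, the constitutive form, had a change of 0.12 ± 0.07, which did not pass (limma adjusted p = 0.321).

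Phosphofructokinase catalyses the committed step. Pfkl, the liver-type subunit, had signals of 11.83, 11.92 and 12.40 in GCN5+/- A1, A2 and line B, and of 12.59, 12.55 and 12.59 in GCN5-/- arrays. The 3 GCN5-/- arrays were level with each other, while GCN5+/- B stood above both line A controls. Pfkl rose by 0.52 ± 0.10 (limma adjusted p = 0.0201), and a second probe set rose by 0.54 ± 0.10; the third and dimmest had a change of 0.11 ± 0.17 and was not called. Pfkp, the platelet-type subunit, had signals of 9.29, 9.13 and 10.31 in controls and of 9.90, 9.92 and 10.38 in GCN5-/- arrays, a change of 0.49 ± 0.14 that was not called (limma adjusted p = 0.0701).

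Of the enzymes that follow phosphofructokinase, Aldoa (aldolase) had a change of 0.10 ± 0.06 and Tpi1 (triosephosphate isomerase) of 0.22 ± 0.08, neither called (limma adjusted p = 0.398 and 0.144). Aldoc, the brain-type aldolase, had a change of 0.02 ± 0.11. The array control probe sets for Gapdh, which were kept out of the tests, differed by 0.16 to 0.24 in pairs A1 and A2 and by 0.03 to 0.05 in pair B.

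Pgk1 (phosphoglycerate kinase, the first step that makes ATP) had signals of 14.24, 14.21 and 14.33 in GCN5+/- A1, A2 and line B, and of 14.52, 14.51 and 14.50 in GCN5-/- arrays. The groups did not overlap, and the spread within the GCN5-/- group was an SD of 0.01 (n = 3). Pgk1 rose by 0.25 ± 0.04 (limma adjusted p = 0.00746), and its other 2 probe sets rose by 0.21 ± 0.03 and 0.25 ± 0.05. Pgam1 (phosphoglycerate mutase) rose by 0.24 ± 0.04, from 13.67 ± 0.10 (SD, n = 3) to 13.91 ± 0.03 (limma adjusted p = 0.0148).

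At the end of the pathway Pkm (pyruvate kinase, muscle type) rose by 0.20 ± 0.04 (limma adjusted p = 0.0309), with signals of 14.10, 14.09 and 14.41 in controls and of 14.36, 14.37 and 14.48 in GCN5-/- arrays. Its groups overlapped, since GCN5+/- B stood above both line A arrays of the GCN5-/- group. Ldha, which turns pyruvate into lactate, had signals of 13.96, 13.90 and 13.96 in controls and of 14.25, 14.21 and 13.99 in GCN5-/- arrays. Its groups did not overlap, but pair B differed by only 0.03, and the change of 0.21 ± 0.06 was not called (limma adjusted p = 0.0624).

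Slc16a3 (MCT4, which exports lactate) had the highest fitted change of the 31 genes and was not called. Signals were 8.67, 8.53 and 8.67 in GCN5+/- A1, A2 and line B, and 10.04, 9.54 and 8.78 in GCN5-/- arrays, so it was higher by 1.37 and 1.02 in line A and by 0.11 in line B. The fitted change was 0.83 ± 0.23 (limma adjusted p = 0.0609), against 1.19 ± 0.18 within line A (limma adjusted p = 0.00822). Pfkfb3, which makes the activator of phosphofructokinase, had the opposite weighting, 0.38 and 0.05 in line A and 0.94 in line B, and was not called (0.45 ± 0.19, limma adjusted p = 0.197). A second, dimmer Pfkfb3 probe set had 0.01 and -0.01 in line A and 0.14 in line B. Its change of 0.05 ± 0.09 was not called.

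Pdk1 phosphorylates and shuts off pyruvate dehydrogenase. Signals were 10.01, 10.17 and 10.36 in GCN5+/- A1, A2 and line B, and 10.78, 10.83 and 10.82 in GCN5-/- arrays. The groups did not overlap, and the 3 GCN5-/- arrays lay within 0.06 of each other on the log2 scale. Pdk1 rose by 0.63 ± 0.10 (limma adjusted p = 0.00844), and its other 2 tested probe sets rose by 0.76 ± 0.15 and 0.94 ± 0.13; the fourth was below the signal filter.

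**Figure D2:**
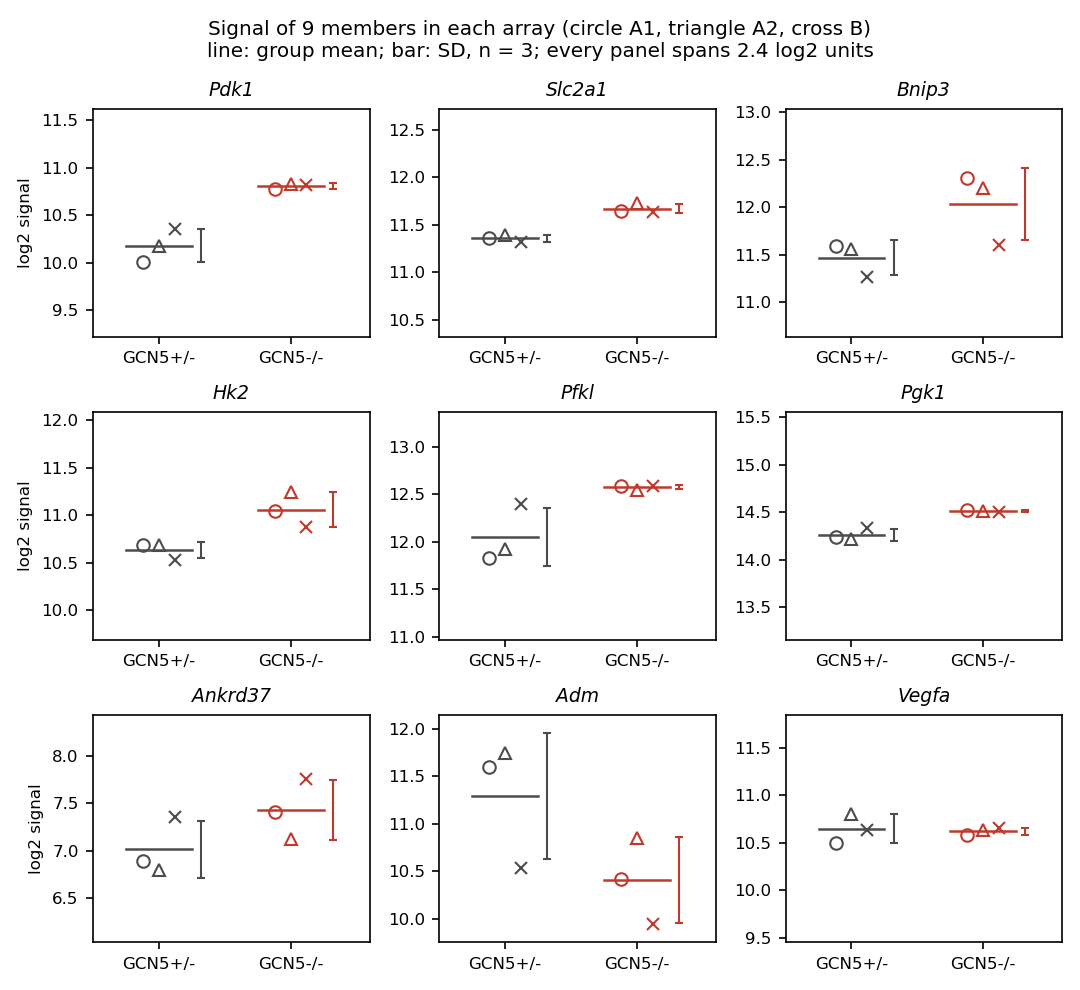
Each panel gives the log2 signal of 1 gene in the 3 GCN5+/- arrays (grey) and the 3 GCN5-/- arrays (red), as circles for A1, triangles for A2 and crosses for B, with the group mean as a line and the SD (n = 3) as a bar, and all panels span the same range of 2.4 log2 units. Pdk1, Slc2a1, Bnip3, Hk2, Pfkl and Pgk1 separate the groups, Ankrd37 and Adm overlap because line B is displaced, and Vegfa lies near 10.6 in both groups.

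Of the other HIF targets 2 of the 8 measured rose, 1 fell and 5 were not called, with a median log2 change of -0.02. Bnip3, a mitochondrial protein that marks mitochondria for removal, had signals of 11.59, 11.56 and 11.26 in GCN5+/- A1, A2 and line B, and of 12.30, 12.20 and 11.60 in GCN5-/- arrays. The groups did not overlap, and the gene rose by 0.57 ± 0.09 (limma adjusted p = 0.00845). Ankrd37, an ankyrin repeat gene whose transcript is a common marker of hypoxia, rose by 0.42 ± 0.11, just under the threshold (limma adjusted p = 0.0491). Its signals were 6.89, 6.79 and 7.36 in controls and 7.41, 7.12 and 7.75 in GCN5-/- arrays, close to the filter value of 6.80, and the call was lost without that filter.

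Adm encodes adrenomedullin, a vasodilator peptide that hypoxia normally raises. Signals were 11.60, 11.75 and 10.54 in GCN5+/- A1, A2 and line B, and 10.42, 10.85 and 9.95 in GCN5-/- arrays. It was lower in each pair, by 1.18, 0.90 and 0.59, although the groups overlapped because line B was lower in both. The fitted change was -0.89 ± 0.14 (limma adjusted p = 0.00961), a level 0.54 times that of controls, and the second Adm probe set fell by 0.96 ± 0.12 (limma adjusted p = 0.00339).

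The remaining targets lay close to 0. Vegfa, the main vessel growth factor under HIF control, had signals of 10.50, 10.80 and 10.64 in controls and of 10.58, 10.63 and 10.65 in GCN5-/- arrays, a change of -0.03 ± 0.10 (limma adjusted p = 0.905). Ndrg1, a stress response gene with 5 probe sets, had changes from -0.09 to 0.02 and no call. The collagen prolyl hydroxylases P4ha1 (0.07 ± 0.06) and P4ha2 (-0.02 ± 0.07) were not called, and neither was Car9 (-0.02 ± 0.12), the carbonic anhydrase often used as a hypoxia marker.

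Read as classes, the enzymes had 5 of 11 called higher (45.5%) with a median of 0.22. The carriers and flux control had 2 of 5 (40%) with a median of 0.45. The other HIF targets had 2 of 8 higher (25%) and 1 of 8 lower with a median of -0.02, and oxygen sensing had 0 of 7. Groups did not overlap for 5 of the 11 enzymes, 3 of the 5 carriers and flux genes, 1 of the 8 other targets and 0 of the 7 sensing genes, 9 of the 31 genes or 29%; over all genes tested the share was 18.2%. The difference between the classes was described by these counts and was not tested.

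The calls depended on how the lines and duplicates entered the fit. With no line term 0 of the 31 genes were called by limma (9 at an unadjusted p under 0.05), where 0.255% of all probe sets were. With line A duplicates averaged the only call was Adm (2.61% of all probe sets). The count of genes called higher was 2 without GCN5+/- A1, 4 without GCN5+/- A2, 4 without GCN5-/- A1 and 2 without GCN5-/- A2. Of all probe sets 2.68%, 4.13%, 4.28% and 2.35% were called in these fits, in either direction, against 8.51% in the main fit. The count was 14 without either line B array, where the effect rests on line A alone. There 8.52% (without GCN5+/- B) and 8.59% (without GCN5-/- B) of all probe sets were called. Without GCN5+/- A1 Adm was not called, and it stayed lower without each other array. Pgk1 stayed called in all 6 fits that left out 1 array, Pdk1, Bnip3 and Adm in 5 each, Hk2 in 3, Pfkl, Pgam1 and Pkm in 2 each, and Slc2a1 and Ankrd37 in none. For eBayes without the variance trend, Pgk1, Pgam1, Pkm, Slc2a1 and Ankrd37 were not called, and 6.06% of all probe sets were.

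At the brightest probe set of each gene, the genotype difference of most enzymes was larger in line A than in line B. Within line A 14 of the 31 genes were called higher and 1 lower, against 5.77% and 5.06% of all genes tested; 9 of the 11 enzymes were among the 14. For eBayes without the variance trend, Pfkl and Pfkp were the only enzymes called within line A. The median difference of the enzymes was 0.29 in line A and 0.07 in line B. The mean of pairs A1 and A2 was more positive than pair B for 10 of 11 enzymes (90.9%), against 53.6% of all genes tested. For Tpi1, pairs A1 and A2 differed by 0.34 and 0.38, and pair B by -0.05, since GCN5+/- B stood at 13.60 beside 13.36 and 13.26 in the line A controls. The exception was Aldoc, with a line A mean of -0.02 and a pair B difference of 0.08. Pgk1 counted among the 10 by its brightest probe set (0.29 in line A, 0.16 in pair B). Its other 2 probe sets, also called, went the other way, with 0.19 and 0.23 in line A and 0.23 and 0.29 in pair B. So did the dimmest Pfkl probe set, with 0.10 and 0.13. Hk2 had a line A mean of 0.46 and a pair B difference of 0.35. Outside the enzymes, the brightest probe set of the carrier Slc2a1 had 0.31 in line A and 0.32 in line B. Its other 2 probe sets, also called, had 0.42 each in line A, and 0.19 and 0.20 in line B.

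The difference between the lines was then tested gene by gene. In the fit with the product of genotype and line, 0 of the 31 genes passed the threshold (limma), where 0.0396% of all genes tested did; 12 of the 31 had an unadjusted p under 0.05, and so did 1217 of 12626 genes tested. For Pfkl the interaction, B minus A, was -0.50 ± 0.11 (limma adjusted p = 0.253), for Tpi1 -0.41 ± 0.09 (limma adjusted p = 0.230) and for Slc16a3 -1.08 ± 0.31 (limma adjusted p = 0.389). This fit has only 2 residual degrees of freedom, both from the line A duplicates, and line B has a single array per group, so its pair has no spread of its own.

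**Figure D3:**
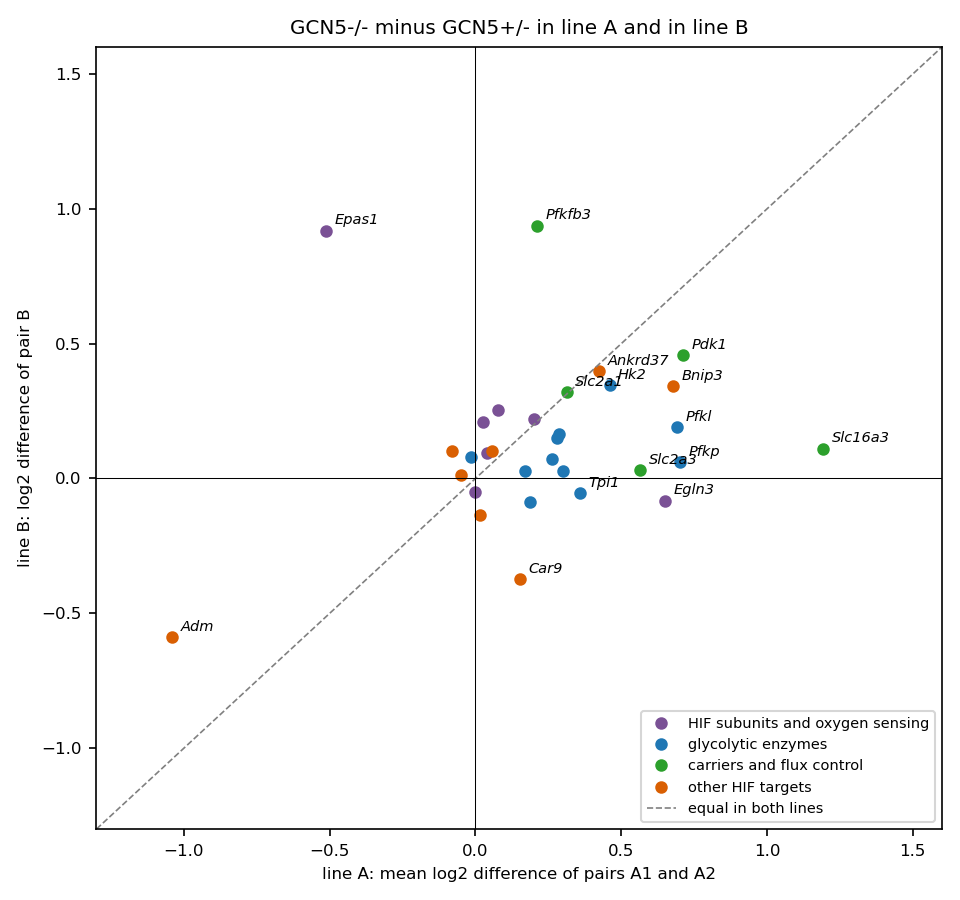
For each of the 31 genes the horizontal axis gives the mean log2 difference of pairs A1 and A2, GCN5-/- minus GCN5+/-, and the vertical axis the difference of pair B; the dashed line marks equal differences. The blue enzymes lie mostly below the dashed line, Pdk1, Bnip3 and Adm change the same way in both lines, and Epas1 lies at -0.51 in line A and 0.92 in line B.

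The lines themselves differed at 12 of the 31 genes, with 8 higher and 4 lower in line B; over all genes tested, 13.2% were higher and 13.5% lower in line B. Slc2a3 stood apart, with signals of 9.30, 9.50, 9.89 and 10.04 in the 4 line A arrays and of 6.72 and 6.75 in the 2 line B arrays. The line B signals lay below the filter value of 6.80, and the fitted difference was -2.95 ± 0.14 (limma adjusted p = 7.87e-06). Egln3 was higher in line B by 1.05 ± 0.17 (limma adjusted p = 0.00360), Pfkp by 0.79 ± 0.15, Egln1 by 0.68 ± 0.09, Aldoc by 0.63 ± 0.12 and Hk1 by 0.54 ± 0.07.

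Adm was lower in line B by 0.91, with a difference of -0.91 ± 0.15 (limma adjusted p = 0.00353), and Bnip3 had a difference of -0.48 ± 0.09. The remaining calls were Egln2 (-0.29 ± 0.08), Ankrd37 (0.50 ± 0.11), Ndrg1 (0.50 ± 0.09) and Pkm (0.22 ± 0.05), all with limma adjusted p-values of 0.0303 or less. Of the 31 genes, 4 were called in both the genotype and the line comparison. Pkm and Ankrd37 were higher in GCN5-/- arrays and in line B, Adm was lower in both, and Bnip3 was higher in GCN5-/- arrays and lower in line B. Pfkp, also higher in line B, differed by 0.61 and 0.79 in pairs A1 and A2 and by 0.06 in pair B.

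**Figure D4:**
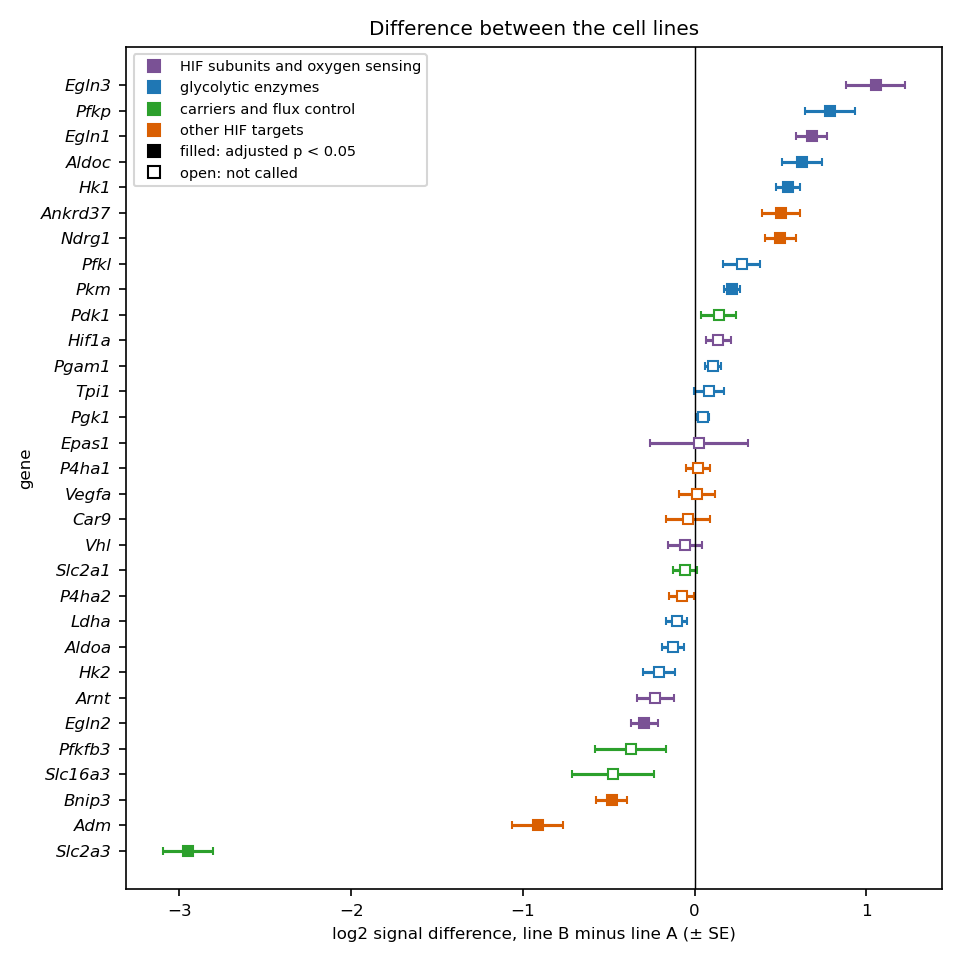
The plot gives the log2 signal difference, line B minus line A, with its SE for each of the 31 genes, ordered by size and filled where called. Slc2a3 lies far to the left at -2.95, and Egln3, Pfkp, Egln1, Aldoc and Hk1 form the upper end.

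Further genes of the pathway that are not among the 35 were read from lists written from textbook knowledge, with earlier results of these data known. Of 36 further HIF regulators and hypoxia targets tested, 4 rose (11.1%, against 5.09% of all genes tested) and 2 fell (5.56%, against 4.77%). The median of the 36 was 0.05. The 4 were Angptl4, a secreted inhibitor of lipoprotein lipase (1.49 ± 0.13, limma adjusted p = 0.000840), Ak4, a mitochondrial adenylate kinase (0.96 ± 0.14), Tfrc, the transferrin receptor (0.65 ± 0.09), and Ero1a, an oxidase of protein folding (0.60 ± 0.10). Vldlr, a lipoprotein receptor, fell by 0.46, with a change of -0.46 ± 0.10, and Arnt2, a relative of Arnt, had a change of -0.60 ± 0.13. Both had limma adjusted p-values of 0.0322 or less. For Ak4, Tfrc, Ero1a and Vldlr another probe set was called in the same direction. Further tested probe sets were not called, with changes of 0.05 and 0.47 for Ak4, 0.59 for Tfrc and 0.14 for Ero1a. Those of Vldlr had -0.36, -0.33 and -0.13, and that of Arnt2 had -0.09, with a pair B difference of 0.24.

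Of 27 further glycolysis and pyruvate genes tested, 5 rose (18.5%, against 5.09% of all genes tested) and 1 fell (3.7%, against 4.77%). The median of the 27 was 0.04. The muscle-type enolase Eno3 rose by 0.86 ± 0.09 (limma adjusted p = 0.00126), with signals of 10.18, 10.17 and 11.13 in controls and of 10.95, 11.16 and 11.95 in GCN5-/- arrays. Pgm1, a phosphoglucomutase, rose by 0.53 ± 0.08, the monocarboxylate carrier Slc16a1 by 0.44 ± 0.08 and the mitochondrial glycerol phosphate dehydrogenase Gpd2 by 0.46 ± 0.09; the fifth was Tigar, named after its values were seen. Pdp1, the phosphatase that reverses the action of Pdk1, fell, with a change of -0.53 ± 0.12 (limma adjusted p = 0.0322), opposite in sign to Pdk1. Of 6 genes of the pentose phosphate pathway, which branches from glycolysis, 0 were called by limma, and 0 had an unadjusted p under 0.05.

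The targeted gene Kat2a, which encodes GCN5, was lower in GCN5-/- arrays at 2 of its 3 probe sets. The Kat2a changes over the 6 arrays come from a fit without the filter on low signal, adjusted over 45037 probe sets, and the line A value from the filtered fit. At the probe set with the larger change, -2.44 ± 0.36 (limma adjusted p = 0.00823), the differences were -1.35 for A1, -2.22 for A2 and -3.76 for B. The third and brightest probe set was not called over the 6 arrays (0.18 ± 0.16). It was higher in GCN5-/- arrays by 0.56 and 0.38 in pairs A1 and A2, a call within line A (0.47 ± 0.09, limma adjusted p = 0.0232), and it differed by -0.41 in pair B. Where it lies relative to the deleted part was not analysed here. Array medians lay between 7.41 and 7.46. Of 8 fibroblast markers 4 (Col1a1, Col3a1, Pdgfra and Pdgfrb) were called lower in GCN5-/- arrays, or 50%, against 4.77% of all genes tested. Col1a2 was lower in each pair but was called only at its dimmer probe sets. Vim and S100a4 were higher in each pair and were not called. The mean level of the 8 markers was 12.98 to 13.04 in GCN5+/- and 12.77 to 12.83 in GCN5-/- arrays. Thy1 had at most 6.21 in line A, below the filter value, and at least 8.60 in line B. Macrophage and leukocyte markers had a mean level of 7.07 to 7.24 in controls and 7.24 to 7.50 in GCN5-/- arrays over 8 genes, with 1 of the 5 tested called higher (Cd53). Ptprc and Itgam lay at or below 5.03 in every array, while Csf1r had 8.22 to 9.97, Cd14 9.24 to 9.42 and Cd53 8.44 to 10.54. Cd68 and the brightest Csf1r probe set were higher in GCN5-/- arrays in each pair and were not called. The dimmer Csf1r probe sets were higher by 0.15 to 0.44 in the line A pairs and differed by -0.13 and -0.18 in pair B. Lyz2 and Cd14 had the same signs, but Lyz2 differed by only 0.002 and 0.01 in line A and Cd14 by -0.01 in pair B. Of 6 endothelial and 6 epithelial markers, 1 and 3 passed the signal filter and 0 of these were called by limma (0 at an unadjusted p under 0.05), with mean levels of 5.91 to 6.05 and 6.43 to 6.65 over the 6 arrays. The part of these markers in the results above was not tested, and in bulk RNA fewer cells of a type and less RNA per cell cannot be told apart.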

How the data were processed

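Total RNA of 6 samples was measured on Affymetrix arrays. The authors deposited 1 log2 signal for each probe set and array; the range of values identified the scale. MAS5 (6 samples) and Partek (1 sample) are named in the submitters' processing notes with no role or order; how arrays were normalized is not given in the sources used here. Medians and quartiles of the arrays nearly coincided, so a change shared by most genes would not be seen. Depth does not apply; the number of arrays limits precision.

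Of 45101 probe sets, 64 control sets were left out. Symbols came from the platform annotation, updated through Entrez identifiers (34945 probe sets with 1 symbol, 932 with several, 9211 unnamed including some controls). Probe sets whose mean signal reached the 40th percentile (6.80) were tested, 27022 in all. R 4.3.3 and limma 3.58.1 (lmFit, eBayes with a trend) fitted genotype and line over the 6 arrays, with 3 residual degrees of freedom, and their product in a second fit; p-values were adjusted over all tested probe sets, and adjusted p under 0.05 was called. A gene is represented by its brightest probe set. The fit was tested on simulated data. All probe sets of the 35 genes could be named, with up to 4 called genes per direction of the other pathway lists. The genes and lists were chosen with earlier results of these data known. Alternatives changed the line term, duplicates, filter, scaling, variance trend, probe set and arrays.

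Replicate names pair arrays by cell line. Deviations from group means correlated at 0.714 for A1, 0.727 for A2 and 0.846 for B; A1 crossed with A2 gave 0.509 and 0.443. These deviations hold the difference between the lines. With a line term, residuals correlated at 0.202 for A1 and 0.169 for A2, and at -0.465 and -0.557 crossed. That fit fixes the B value at -1 and in part sets the others. Per array pair, 38 to 62 probe sets had identical values, so no array was a copy.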

Additional observations from a re-analysis of the deposited data

Results flagged for a closer look

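For 6 genes both line A pairs moved one way and the line B pair the other. The difference between the lines (B minus A, log2) was 1.43 for Epas1, -0.73 for Egln3, -0.27 for Aldoa, -0.41 for Tpi1, -0.53 for Car9 and 0.18 for P4ha2. The interaction test did not put any of the 6 past the threshold (limma adjusted p = 0.198, 0.499, 0.399, 0.230, 0.599 and 0.883). The line B difference comes from 1 array per group and was -0.08 for Egln3, -0.09 for Aldoa and -0.05 for Tpi1. Groups of 3 arrays are too small for a test of single outlying samples.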

How the results depend on the processing

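Genes called higher numbered 9, and 0 with no line term, 2 with line as a random block, 0 with averaged line A duplicates and 4 for eBayes without trend; genes called lower numbered 1, and 0 with no line term and 0 with line as a random block. Of all probe sets, 8.51% were called in the main fit, 1.97% with line as a random block and 6.06% for eBayes without trend. Leaving out 1 array gave 2 to 14 higher and 0 to 1 lower, with 2.35% to 8.59% of all probe sets called. Calls within line A numbered 15 and fell to 6 for eBayes without trend (11 to 13 with 1 line A array left out), and the interaction had 0 to 1 calls (Epas1, 1.64). With the replicate block the same 10 genes were called, and with quantile normalization also. The cause of these changes was not tested; averaging leaves fewer values. The sign changed for 8 genes, none of them called in either fit. With averaged duplicates Epas1 was 0.20 and P4ha2 0.011. Leaving out 1 array gave -0.51 to 0.22 for Epas1, -0.048 to 0.0045 for Egln2, -0.0055 to 0.13 for Vhl, -0.053 to 0.10 for Aldoc, -0.11 to 0.064 for Vegfa, -0.077 to 0.15 for Car9, -0.094 to 0.015 for Ndrg1 and -0.079 to 0.00073 for P4ha2. Slc16a3 and Ldha were called with the filter at the 60th percentile.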
